A study of Mus musculus with 4 samples.

Results

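Clone 6 and clone 12 are separate monoclonal lines of immortalised mesenchymal stem cells from mouse bone marrow, and the transcripts that set clone 12 apart from clone 6 are described here. Each line descends from 1 cell, comes from C57BL/6 mice and carries floxed Dicer alleles that were not deleted (Dicer f/f, labelled Dicer WT). Both lines were grown in Alpha-MEM with 10% fetal bovine serum and were infected with the puromycin-resistance retrovirus pMMP-puro, either with vector alone or encoding Flag-HA-tagged NR6A1, a nuclear receptor of the germ line and early embryo. The series holds 4 polyadenylated RNA libraries, 1 for each clone and virus, and all 4 were used, so each clone was read in 2 libraries. Of 21881 genes in the deposited table, the 11149 with a mean of at least 1 FPKM (fragments per kilobase of transcript, scaled to the mapped fragments of the library) were compared, after 197 genes of small RNAs above that level had been left out by symbol.

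Mesenchymal stem cells of the marrow are stromal cells that can form bone, cartilage and fat in culture and that feed blood formation through secreted factors. Commitment to bone passes through the transcription factors Runx2 and Sp7 to enzymes and matrix proteins of mineralising tissue, such as tissue-nonspecific alkaline phosphatase (Alpl), collagen I and bone sialoprotein (Ibsp). Stromal cells also answer viral nucleic acid through type I interferon, whose receptor switches on a battery of antiviral genes.

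The labels were checked first. Nr6a1 was at 4.18 and 783 FPKM in clone 6 and 2.804 and 598 FPKM in clone 12, so the libraries with the NR6A1 virus were set apart from those with vector in both clones. Nr6a1 was itself called lower in clone 12 by the limma fit described below (-0.42 ± 0.08, adjusted p = 0.0145). Dicer1 was at 5.97 and 5.62 FPKM in clone 6 and 5.46 and 4.902 FPKM in clone 12. Among surface markers of mesenchymal stem cells, endoglin (Eng, 43.5 to 55.4 FPKM) and integrin beta 1 (Itgb1, 277 to 326 FPKM) were present in every library, CD73 (Nt5e) was low at 2.92 and 3.9998 FPKM in clone 6 and 2.097 and 2.23 FPKM in clone 12, and CD90 (Thy1) was listed at 0 in 3 libraries and at 0.0297 FPKM in clone 6 with vector. The spacing of low values put the depth of the libraries at 20.4 to 24.2 M mapped reads, at which a gene at 1 FPKM with 2000 bases of transcript would have about 36.6 to 43.3 reads. Xist was at 51.9 to 62.5 FPKM in all 4 libraries, and the Y-linked gene Ddx3y did not exceed 0.0245 FPKM.

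Markers of blood, endothelial, neural and epithelial cells were low in both clones. The summed level of 16 blood cell markers was 8.77 to 9.03 FPKM in clone 6 and 9.50 to 11.4 FPKM in clone 12, most of it Cd14, while the leukocyte antigen Ptprc was at or near 0 (0.0234 FPKM or less). The sum of 10 endothelial markers was 0.407 to 0.641 FPKM, and that of 10 neural and glial markers was 4.10 to 5.62 FPKM. Epithelial markers summed to 13.1 and 0.963 FPKM in clone 6 and to 3.29 and 1.62 FPKM in clone 12. Keratin 14 (Krt14) made up most of the sum in clone 6, at 12.9 and 0.615 FPKM, and was at 1.4997 and 0.298 FPKM in clone 12, where keratin 19 (Krt19) was at 1.59 and 0.996 FPKM (0.128 and 0.175 FPKM in clone 6). Pericyte markers were not scarce: 9 of them summed to 72.6 and 92.2 FPKM in clone 6 and to 72.8 and 74.5 FPKM in clone 12, most of it Pdgfrb (43.5 to 56.3 FPKM), also a marker of mesenchymal stem cells, and Mcam (10.7 to 20.1 FPKM). Of the pericyte markers, 4 were tested and none was called, and Rgs5 and Cspg4 did not exceed 0.0766 FPKM. Whether any of these cells had a part in the results was not tested. In bulk libraries, fewer cells of a kind and less RNA per cell cannot be told apart.

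Expression was compared as log2(FPKM + 1), clone 12 minus clone 6, within each virus (virus as a block), with limma and a Benjamini-Hochberg adjusted p under 0.05 as the call. On this scale the change of genes with low values is understated. The p-value measures how alike the clones differed with vector and with NR6A1; no repeat culture of one clone and virus was sequenced. Values below are given in the order vector, NR6A1.

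The clones differed widely. Of the 11149 genes, 3478 (31.2%) were called, 1870 (16.8%) higher and 1608 (14.4%) lower in clone 12, and the median difference over all genes tested was 0.04. Among them, 383 (3.44%) were at least 2-fold higher and 328 (2.94%) at least 2-fold lower in clone 12; 288 and 256 of these passed 2-fold with each virus. No called gene differed in opposite directions in the vector and the NR6A1 pair, but the fit cannot call such a gene. The lack of such calls therefore says nothing about agreement between the viruses. The number of calls changed with the libraries in the fit. A fit of 3 libraries has no room for the virus block, and the lone library of a clone is assumed to vary like the other clone, whose gap between vector and NR6A1, virus effect included, is the only spread. In such fits 101 genes were called without clone 12 with vector and 354 without clone 12 with NR6A1, against 1716 and 2357 without the matching clone 6 libraries. With no filter on low values none of 17683 genes was called by limma, although 5523 had an unadjusted p under 0.05 there and 4977 in the filtered set.

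**Figure D1:**
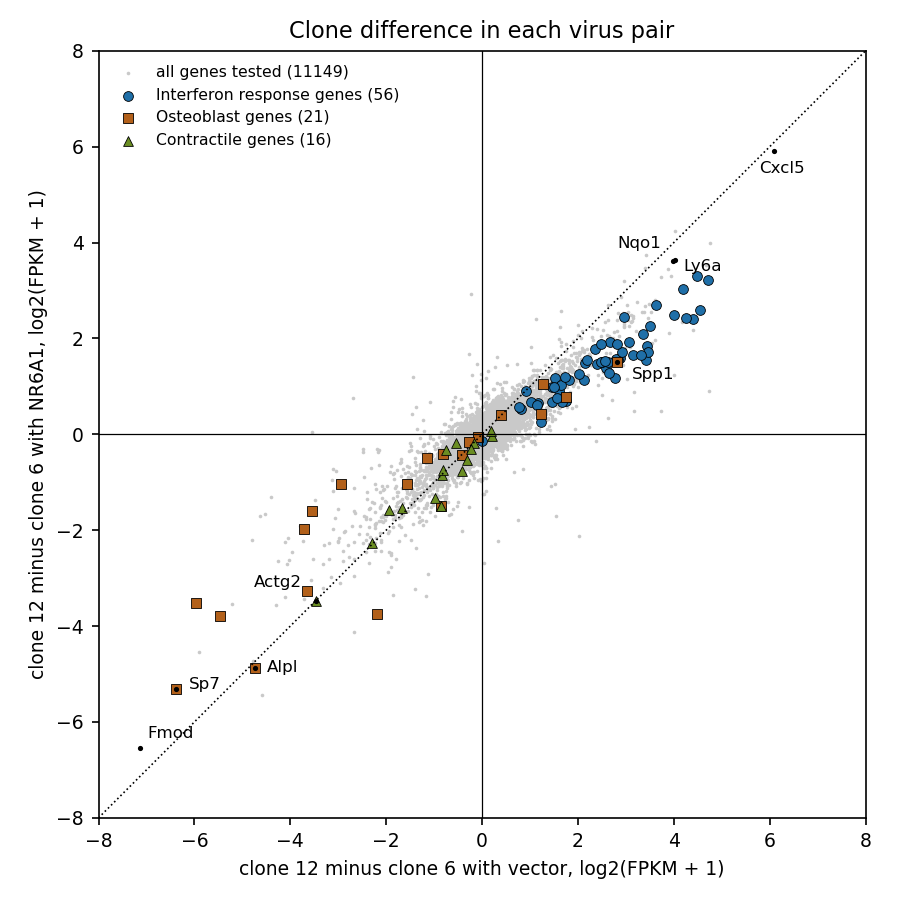
Each point is 1 of the 11149 genes tested; the x axis is the clone 12 minus clone 6 difference in the vector libraries and the y axis the same difference in the NR6A1 libraries, both in log2(FPKM + 1), with equality dotted. Interferon response genes lie right of the equality line, with a median of 2.53 with vector and 1.51 with NR6A1, whereas Alpl (-4.8) and Fmod (-6.83) lie far below 0 on both axes.

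At the top of the genes that were higher in clone 12 stood Cxcl5, a chemokine that attracts neutrophils, at 0.0941 and 0.552 FPKM in clone 6 and 73.02 and 91.9 FPKM in clone 12 (difference 5.99 ± 0.10, SE, adjusted p = 4.67e-05). The neighbours Tmem176b and Tmem176a, which encode related membrane proteins, were at 3.46 and 5.47 FPKM in clone 6 and 112 and 73.6 FPKM in clone 12 and at 2.33 and 2.31 FPKM in clone 6 and 49.8 and 31.6 FPKM in clone 12. Mesothelin (Msln), a surface glycoprotein of mesothelium, was at 0.0429 and 0.247 FPKM in clone 6 and 27.3 and 18.9 FPKM in clone 12. All 4 of these genes, chosen by their clone difference, were far above their clone 6 levels in both clone 12 libraries. Ly6a, which encodes the stem cell antigen Sca-1, was at 18.98 and 9.31 FPKM in clone 6 and 317 and 125 FPKM in clone 12 (3.8 ± 0.11, adjusted p = 0.000216). Cd34, another progenitor antigen, was at 0.116 and 0.131 FPKM in clone 6 and 13.8 and 9.99 FPKM in clone 12 (3.51 ± 0.17, adjusted p = 0.000664). Ly6a, also chosen by its clone difference, was lower with NR6A1 than with vector in each clone, and the clones did not overlap. The quinone reductase gene Nqo1, an Nrf2 target, was nearly silent in clone 6: 0.197 and 0.2798 FPKM in clone 6 and 18.4 and 14.9 FPKM in clone 12 (3.83 ± 0.15). The interleukin-33 receptor gene Il1rl1 was at 1.09 and 1.07 FPKM in clone 6 and 21.1 and 21.99 FPKM in clone 12 (3.44 ± 0.11). B3galnt1, a glycosyltransferase of globoside synthesis, was at 0.0241 and 0 FPKM in clone 6 and 15.5 and 17.9 FPKM in clone 12; its clone 6 library with NR6A1 is listed at 0.

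The genes highest in clone 6 relative to clone 12 were led by fibromodulin (Fmod), a proteoglycan that binds collagen fibrils, at 357 and 193 FPKM in clone 6 and 1.55 and 1.098 FPKM in clone 12 (-6.83 ± 0.15, adjusted p = 9.97e-05). Hpgd, which inactivates prostaglandins, was at 82.6 and 30.5 FPKM in clone 6 and 0.401 and 0.352 FPKM in clone 12 (-5.22 ± 0.31). Ch25h, which makes 25-hydroxycholesterol, was at 62.8 and 56.01 FPKM in clone 6 and 1.32 and 1.14 FPKM in clone 12 (-4.76 ± 0.09). Both were near 1 FPKM or below in clone 12. Aes, a corepressor of the Groucho family, was at 255 and 106 FPKM in clone 6 and 9.56 and 1.44 FPKM in clone 12 (-5.02 ± 0.20). The neuropeptide gene Nts was at 47.6 and 12.4 FPKM in clone 6 and 0.311 and 0.149 FPKM in clone 12. The secreted Wnt inhibitor Wif1 was at 23.3 and 13.5 FPKM in clone 6 and 0.405 and 0.381 FPKM in clone 12 (-3.75 ± 0.20). Each of these was chosen by its clone difference, and each was higher in both clone 6 libraries than in either clone 12 library. Among the most abundant transcripts, Sfrp2, another secreted Wnt modulator, was at 1310.1 and 204 FPKM in clone 6 and 352 and 29.02 FPKM in clone 12 (-2.33 ± 0.20, adjusted p = 0.00241); it was lower in clone 12 with each virus, but clone 6 with NR6A1 lay below clone 12 with vector. Apoo-ps is a pseudogene whose reads may belong to its parent gene, and 3110039M20Rik, Tmem217 and A930038C07Rik, also among the 15 largest differences in their directions, have no role that can be stated here.

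**Figure D2:**
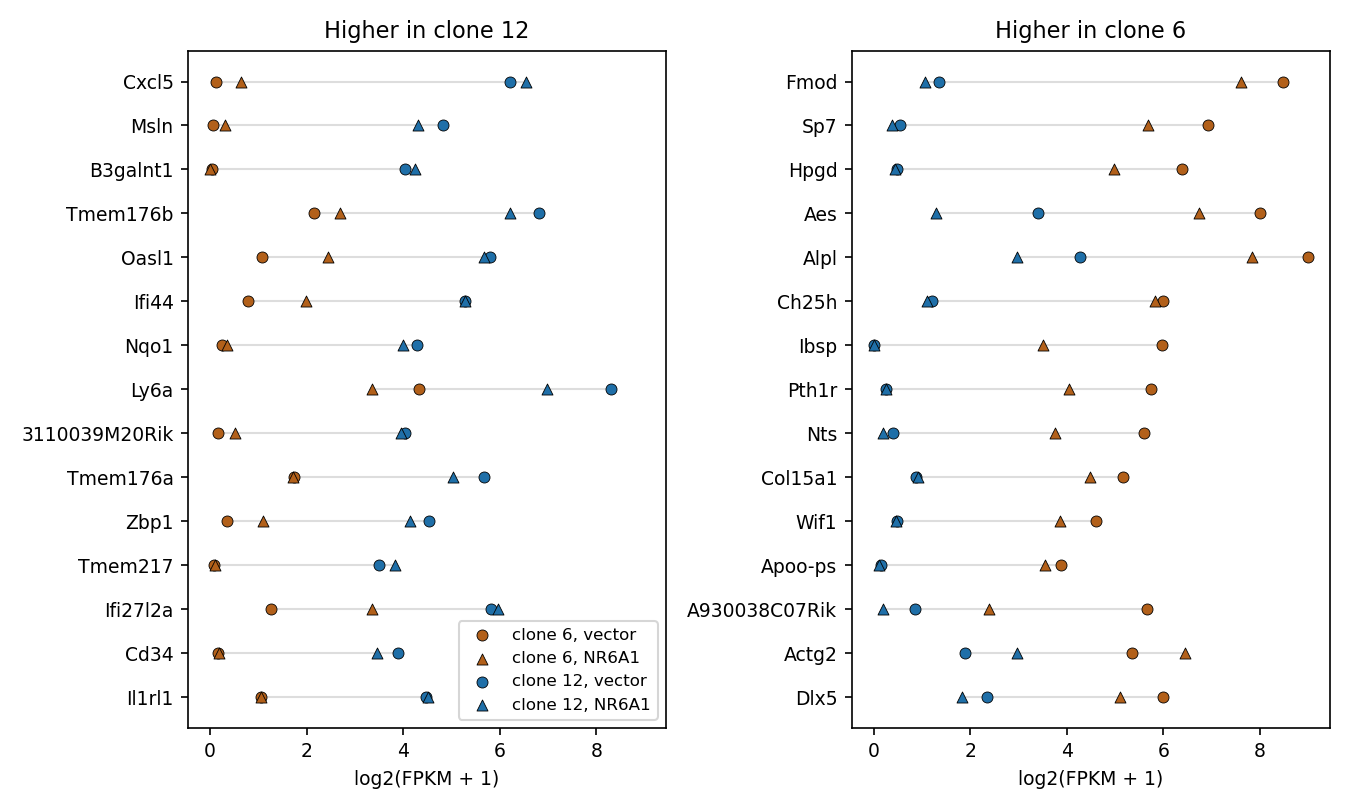
The 15 genes with the largest called difference in each direction at a mean of at least 5 FPKM, on log2(FPKM + 1) axes; circles are vector and triangles NR6A1 libraries, orange clone 6 and blue clone 12, 1 library per point. The genes were chosen for a called difference of 1 direction with both viruses. Clone 12 thus lies right of clone 6 in the left panel and left of it in the right panel, from Cxcl5 (5.99) to Fmod (-6.83).

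Members of this and the later lists were chosen with earlier results of these data known, and some genes are on more than 1 list. Osteoblast genes leaned to clone 6, as did other lineage lists below. Of 21 tested, 14 were lower and 5 higher in clone 12 (66.7% and 23.8%, against 14.4% and 16.8% of all genes). Past 2-fold were 11 and 3 of them, and the median difference was -1.17. The transcription factor Sp7 (osterix), required for bone formation, was at 120.1 and 50.6 FPKM in clone 6 and 0.459 and 0.294 FPKM in clone 12 (-5.85 ± 0.25, adjusted p = 0.000511). Dlx5, a homeobox activator of osteoblast genes, was at 62.9 and 33.2 FPKM in clone 6 and 4.11 and 2.56 FPKM in clone 12 (-3.45 ± 0.12). Runx2, which acts before Sp7, was at 32.2 and 23.4 FPKM in clone 6 and 17.9 and 17.4 FPKM in clone 12 (-0.61 ± 0.12, adjusted p = 0.0171). Sp7 was thus nearly silent in clone 12, whereas Runx2 transcripts were present in both clones.

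The mineralisation enzyme Alpl, which frees phosphate from pyrophosphate, was at 509 and 228 FPKM in clone 6 and 18.2 and 6.85 FPKM in clone 12 (-4.8 ± 0.08, adjusted p = 4.67e-05). Bone sialoprotein (Ibsp), a matrix protein of mineralised tissue, was at 61.7 and 10.4 FPKM in clone 6 and is listed at 0 in both clone 12 libraries. The parathyroid hormone receptor gene Pth1r was at 52.2 and 15.4 FPKM in clone 6 and 0.197 and 0.191 FPKM in clone 12 (-4.63 ± 0.38). All 3, chosen by their clone difference, were lower with NR6A1 than with vector in clone 6 and stayed above both clone 12 libraries there. Phospho1, a phosphatase of matrix vesicles, was at 70.1 and 13.7 FPKM in clone 6 and 14.5 and 0.0913 FPKM in clone 12 (-2.97 ± 0.35); its clone 6 library with NR6A1 did not exceed clone 12 with vector. Osteocalcin transcripts, listed under the near-identical copies Bglap and Bglap2 and therefore uncertain in their split, were at 17.2 and 3.86 FPKM in clone 6 and 0.396 and 0.235 FPKM in clone 12 for Bglap and at 13.8 and 2.59 FPKM in clone 6 and 0.262 and 0.18005 FPKM in clone 12 for Bglap2.

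Members of the osteoblast list that were higher in clone 12 included Spp1 (osteopontin), a phosphoprotein of bone matrix and of inflamed tissue, at 254 and 409 FPKM in clone 6 and 1794 and 1157 FPKM in clone 12 (2.16 ± 0.29, adjusted p = 0.0069). Enpp1, which generates pyrophosphate, an inhibitor of mineral growth, was at 2.28 and 4.85 FPKM in clone 6 and 10.03 and 8.96 FPKM in clone 12 (1.26 ± 0.24). Ank, a pyrophosphate exporter, was at 34.99 and 54.9 FPKM in clone 6 and 82.8 and 74.05 FPKM in clone 12 (0.82 ± 0.19). The gene for the kinase of matrix phosphoproteins, Fam20c, and that for osteonectin, Sparc, did not pass the test: Sparc was at 1280.5 and 1184 FPKM in clone 6 and 1062 and 1067 FPKM in clone 12. The count of 14 lower genes was 7 without the virus block and 8 with a robust prior; it was 2 without clone 12 with vector and 4 without clone 12 with NR6A1.

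Most cartilage genes were low in both clones. Of 7 tested genes, 4 (57.1%, against 14.4% of all genes) were lower in clone 12 and none was higher. The median was -0.93 (0.23 over the members with a mean of at least 5 FPKM). Matn2 was at 17.4 and 19.9 FPKM in clone 6 and 22.8 and 21.2 FPKM in clone 12 and was not called. Col11a1, a chain of cartilage fibrils that osteoblasts also make, was at 37.7 and 19.8 FPKM in clone 6 and 1.38 and 2.401 FPKM in clone 12 (-3.32 ± 0.32). Col2a1, the main cartilage collagen, was at 3.703 and 2.22 FPKM in clone 6 and 0.0765 and 0.103 FPKM in clone 12 (-1.84 ± 0.22). Col11a1 and Col2a1 are counted again among the collagen chains below. The chondrocyte factor Sox9 was at 2.42 and 6.37 FPKM in clone 6 and 6.23 and 5.73 FPKM in clone 12 and was not called. Aggrecan (Acan), a defining cartilage proteoglycan, was below 0.1 FPKM in every library.

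Fat cell genes leaned to clone 6, with called members in both directions. Of 15 tested, 7 were lower and 3 higher in clone 12 (46.7% and 20%, against 14.4% and 16.8% of all genes). The median was -0.31. The adipogenic factor Cebpa was at 39.9 and 49.3 FPKM in clone 6 and 14.8 and 8.66 FPKM in clone 12 (-1.88 ± 0.23, adjusted p = 0.0054). The fatty acid carrier Fabp4 was at 285 and 129 FPKM in clone 6 and 79.4 and 73.3 FPKM in clone 12 (-1.32 ± 0.23). Cebpb, which acts before Cebpa in fat cell formation, was at 61.6 and 57.9 FPKM in clone 6 and 129 and 121 FPKM in clone 12 (1.05 ± 0.07). The lipid droplet protein gene Plin2 was at 54.1 and 82.9 FPKM in clone 6 and 121 and 124 FPKM in clone 12 (0.87 ± 0.14). The early factor thus was higher in clone 12 and the later factor higher in clone 6. The nuclear receptor Pparg was at 40.4 and 31.8 FPKM in clone 6 and 29.6 and 26.96 FPKM in clone 12 (-0.33 ± 0.09, adjusted p = 0.0414). The mature fat cell hormone gene Adipoq was at or below 0.318 FPKM in clone 6 and listed at 0 in clone 12.

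Of 17 surface markers of mesenchymal stem cells, 5 were higher and 5 lower in clone 12 (29.4% each way). Among all genes 16.8% were higher and 14.4% lower, so the counts leaned to neither clone. Besides Ly6a and Cd34, the adhesion molecule gene Vcam1 was higher at 8.14 and 20.7 FPKM in clone 6 and 50.6 and 47.7 FPKM in clone 12 (1.83 ± 0.30). The intermediate filament gene Nes was at 8.33 and 8.96 FPKM in clone 6 and 16.4 and 16.5 FPKM in clone 12 (0.86 ± 0.09). The hyaluronan receptor gene Cd44 was at 50.1 and 48.6 FPKM in clone 6 and 69.5 and 73.8 FPKM in clone 12 (0.53 ± 0.08). The markers that were higher in clone 6 included Cd200, a ligand that restrains myeloid cells, at 8.93 and 3.72 FPKM in clone 6 and 2.76 and 1.79 FPKM in clone 12 (-1.08 ± 0.19). The mesenchymal cadherin gene Cdh11 was at 3.72 and 2.26 FPKM in clone 6 and 1.08 and 1.195 FPKM in clone 12 (-0.88 ± 0.20). The growth factor receptor gene Pdgfra was at 5.35 and 7.99 FPKM in clone 6 and 2.49 and 4.11 FPKM in clone 12 (-0.84 ± 0.12). Transcripts of Sca-1, CD34 and VCAM-1 were thus higher in clone 12 and those of Cd200, Cdh11 and Pdgfra higher in clone 6. Itgb1 (adjusted p = 0.369) and Eng (adjusted p = 0.0649) did not pass the test.

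Factors with which stroma supports blood cells and vessels were also divided. Of 13 tested, 6 were higher and 4 lower in clone 12 (46.2% and 30.8%, against 16.8% and 14.4% of all genes). The median was 0.30 and became -0.35 over the members with a mean of at least 5 FPKM. The chemokine Cxcl12, which retains blood stem cells, was at 249 and 209 FPKM in clone 6 and 137 and 107 FPKM in clone 12 (-0.91 ± 0.08). Stem cell factor (Kitl) was at 52.03 and 54.5 FPKM in clone 6 and 27.4 and 19.8 FPKM in clone 12 (-1.16 ± 0.13). Bmp4 was at 128 and 131 FPKM in clone 6 and 38.7 and 40.8 FPKM in clone 12 (-1.68 ± 0.07). All 3 were abundant in clone 6 and present in clone 12 at lower levels. Vegfc, a growth factor of lymphatic vessels, was at 0.195 and 0.675 FPKM in clone 6 and 6.39 and 7.79 FPKM in clone 12 (2.51 ± 0.15). The lymphocyte factor Il7 was at 0.415 and 1.43 FPKM in clone 6 and 3.06 and 3.87 FPKM in clone 12 (1.26 ± 0.19). Both were below 1.5 FPKM in clone 6.

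Contractile genes also leaned to clone 6. Of 16 tested, 11 (68.8%, against 14.4% of all genes) were lower and none was higher in clone 12, with a median of -0.69. The smooth muscle actin genes Actg2 and Acta2 were at 39.9 and 85.8 FPKM in clone 6 and 2.71 and 6.78 FPKM in clone 12 (-3.47 ± 0.08) and at 624 and 960.2 FPKM in clone 6 and 194 and 332 FPKM in clone 12 (-1.6 ± 0.08, adjusted p = 0.000782); actin genes share sequence, which could divide reads between them. The light chain gene Myl9 was at 139 and 219.5 FPKM in clone 6 and 27.7 and 44.99 FPKM in clone 12 (-2.27 ± 0.07). The actin-binding protein gene Tagln was at 102 and 216 FPKM in clone 6 and 25.7 and 71.9 FPKM in clone 12 (-1.76 ± 0.11). All 4 were higher with NR6A1 than with vector in each clone. None of them overlapped between clones, but they were chosen by their clone difference, which favours such a gap. Tropomyosin 1 (Tpm1), at 635 and 734 FPKM in clone 6 and 718 and 773 FPKM in clone 12, and filamin A (Flna), at 297 and 359 FPKM in clone 6 and 253 and 289 FPKM in clone 12, did not pass the test. The defining smooth muscle genes Myh11 (0.330 to 0.410 FPKM) and Myocd (1.90 FPKM or less) were below the filter on mean level.

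Skeletal muscle factors were near absent: Myod1 was listed at 0 in every library, and Myog did not exceed 0.0369 FPKM. Of 6 tested muscle genes, 4 were lower and 1 higher in clone 12 (66.7% and 16.7%, against 14.4% and 16.8% of all genes). The median was -0.62. Mef2c, a transcription factor of muscle, bone and cartilage, was at 23.3 and 6.07 FPKM in clone 6 and 0.268 and 0.134 FPKM in clone 12 (-3.45 ± 0.37). Pax3, a factor of muscle and neural crest precursors, was at 3.59 and 4.98 FPKM in clone 6 and 9.84 and 9.48 FPKM in clone 12 (1.02 ± 0.14).

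Hox genes, which record position along the body and limb axes, differed little. Of 18 tested, 3 were lower in clone 12 (16.7%, against 14.4% of all genes) and none was higher. These were Hoxa10 (-0.68 ± 0.08), Hoxa11 (-0.56 ± 0.08) and Hoxc13 (-0.62 ± 0.08), and Hoxa11 was at 36.3 and 34.2 FPKM in clone 6 and 24.3 and 22.9 FPKM in clone 12. Both clones thus expressed the posterior genes Hoxa10 and Hoxa11. Among 29 tested transcription factors of mesenchyme and limb, 12 (41.4%) were lower and 4 (13.8%) higher in clone 12. Over all genes the shares were 14.4% and 16.8%. Irx3, an Iroquois homeobox factor, was at 31.1 and 20.01 FPKM in clone 6 and 4.02 and 3.41 FPKM in clone 12 (-2.46 ± 0.13). Eya1, a transcriptional cofactor in organ formation, was at 17.5 and 21.9 FPKM in clone 6 and 7.28 and 7.49 FPKM in clone 12 (-1.29 ± 0.11). Twist2, a basic helix-loop-helix repressor of mesenchymal differentiation, was higher in clone 12 at 10.3 and 23.9 FPKM in clone 6 and 36.96 and 39.7 FPKM in clone 12 (1.23 ± 0.24), whereas the limb mesenchyme factor Prrx1 was at 71.04 and 66.8 FPKM in clone 6 and 57.2 and 62.99 FPKM in clone 12 and was not called.

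Clone 12 was marked by an interferon response signature. Like the other lists, this list was chosen with earlier results of these data known, which can raise its counts. Of 56 tested interferon response genes, 54 (96.4%) were higher and none was lower in clone 12, 48 of them past 2-fold, with a median difference of 1.997; among all genes 16.8% were higher and the median was 0.04. The median level of the 56 genes was 3.56 and 9.85 FPKM in clone 6 and 32.4 and 30.3 FPKM in clone 12. Clone 6 with NR6A1 lay between clone 6 with vector and both clone 12 libraries.

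Promoter letters of these genes are shown because their known activators bind a repeated GAAA core, the interferon-stimulated response element. RefSeq promoters (GRCm38.p6) were searched over 250 bases before each start for GAAANNGAAA and its reverse TTTCNNTTTC, on both strands, with matches allowed to overlap each other. The windows below are stretches around the first match, written 5′ to 3′ on the strand of the gene, with matches in capitals. They come from Isg15, Ifit1, Ifit3, Bst2 and Gbp2, which were higher in clone 12, and from Ifitm2, which was not called.
Isg15, chr4:156200847-156200936, minus strand: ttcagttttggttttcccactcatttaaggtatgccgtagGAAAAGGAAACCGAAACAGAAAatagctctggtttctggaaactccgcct
Ifit1, chr19:34640745-34640834, plus strand: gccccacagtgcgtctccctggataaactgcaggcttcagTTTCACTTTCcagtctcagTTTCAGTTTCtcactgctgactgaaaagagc
Ifit3, chr19:34583333-34583422, plus strand: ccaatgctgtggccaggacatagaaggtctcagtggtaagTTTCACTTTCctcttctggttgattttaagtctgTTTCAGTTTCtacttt
Bst2, chr8:71537553-71537642, minus strand: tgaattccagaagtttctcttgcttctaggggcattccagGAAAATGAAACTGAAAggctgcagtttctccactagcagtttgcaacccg
Gbp2, chr3:142620564-142620653, plus strand: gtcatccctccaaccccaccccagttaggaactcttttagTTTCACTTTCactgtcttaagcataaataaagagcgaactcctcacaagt
Ifitm2, chr7:140955962-140956047, minus strand: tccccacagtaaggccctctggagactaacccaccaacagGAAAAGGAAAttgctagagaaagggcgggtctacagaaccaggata

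Of 42 interferon list members with a RefSeq promoter, 16 (38.1%) held a match, against 249 of 7899 tested genes (3.15%) and 978 of all 32851 promoters (2.98%). Among genes called at least 2-fold higher in clone 12 the share was 39 of 243 (16.0%), and 26 of 209 (12.4%) when the interferon list was left out. Among those at least 2-fold lower it was 5 of 227 (2.20%), and on the osteoblast list it was 1 of 15 (6.67%). A match describes letters and not binding, and Ifitm2 holds 1 with no called difference.

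The ubiquitin-like modifier gene Isg15 was at 30.9 and 83.6 FPKM in clone 6 and 347 and 302 FPKM in clone 12 (2.64 ± 0.35, adjusted p = 0.00658). Ifit1 and Ifit3, which encode proteins that bind foreign RNA and block its translation, were at 6.81 and 25.4 FPKM in clone 6 and 81.9 and 76.2 FPKM in clone 12 (2.48 ± 0.41) and at 1.29 and 6.52 FPKM in clone 6 and 47.6 and 38.6 FPKM in clone 12 (3.4 ± 0.44). These 3 genes were about as high in both clone 12 libraries and lowest in clone 6 with vector. Bst2 (tetherin), which holds enveloped viruses at the cell surface, was at 138 and 259 FPKM in clone 6 and 836 and 677 FPKM in clone 12 (1.99 ± 0.27). The guanylate-binding protein gene Gbp2 was at 1.39 and 2.799 FPKM in clone 6 and 14.3 and 13.3 FPKM in clone 12 (2.3 ± 0.20). Ifitm3, which blocks viral entry, was at 238 and 513 FPKM in clone 6 and 802 and 826 FPKM in clone 12 (1.22 ± 0.24), whereas its relatives Ifitm2, at 269 and 319 FPKM in clone 6 and 269 and 288 FPKM in clone 12, and Ifitm1, at 7.49 and 16.6 FPKM in clone 6 and 19.02 and 20.1 FPKM in clone 12, did not pass the test.

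Genes that sense nucleic acid were among those higher in clone 12. Ddx58 (RIG-I), an RNA sensor, was at 10.7 and 18.7 FPKM in clone 6 and 61.1 and 53.7 FPKM in clone 12 (1.94 ± 0.22). Zbp1, a sensor of Z-form nucleic acid, was at 0.2702 and 1.15 FPKM in clone 6 and 22.2 and 16.5 FPKM in clone 12 (3.61 ± 0.27). Oasl1 was at 1.11 and 4.47 FPKM in clone 6 and 54.6 and 49.9 FPKM in clone 12 (3.97 ± 0.33, adjusted p = 0.0022); the Oas and Oasl genes are close copies, so the division of their reads is uncertain. Of the transcription factors, Irf7, which amplifies interferon production, was at 3.35 and 10.96 FPKM in clone 6 and 69.1 and 66.4 FPKM in clone 12 (3.25 ± 0.34). Irf9, which acts below the interferon receptor, was at 12.6 and 23.7 FPKM in clone 6 and 42.1 and 38.3 FPKM in clone 12 (1.16 ± 0.23). Irf7 thus had a larger difference than Irf9. Ifi44 and Ifi27l2a, interferon-induced genes, were at 0.728 and 2.95 FPKM in clone 6 and 37.7 and 38.05 FPKM in clone 12 (3.89 ± 0.27) and at 1.41 and 9.28 FPKM in clone 6 and 55.3 and 61.2 FPKM in clone 12 (3.57 ± 0.43).

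The interferon count of 54 was 51 without the virus block and 29 with a robust prior. Leaving out a library gave 52 without clone 6 with vector, 54 without clone 6 with NR6A1, 2 without clone 12 with vector and 14 without clone 12 with NR6A1.

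**Figure D3:**
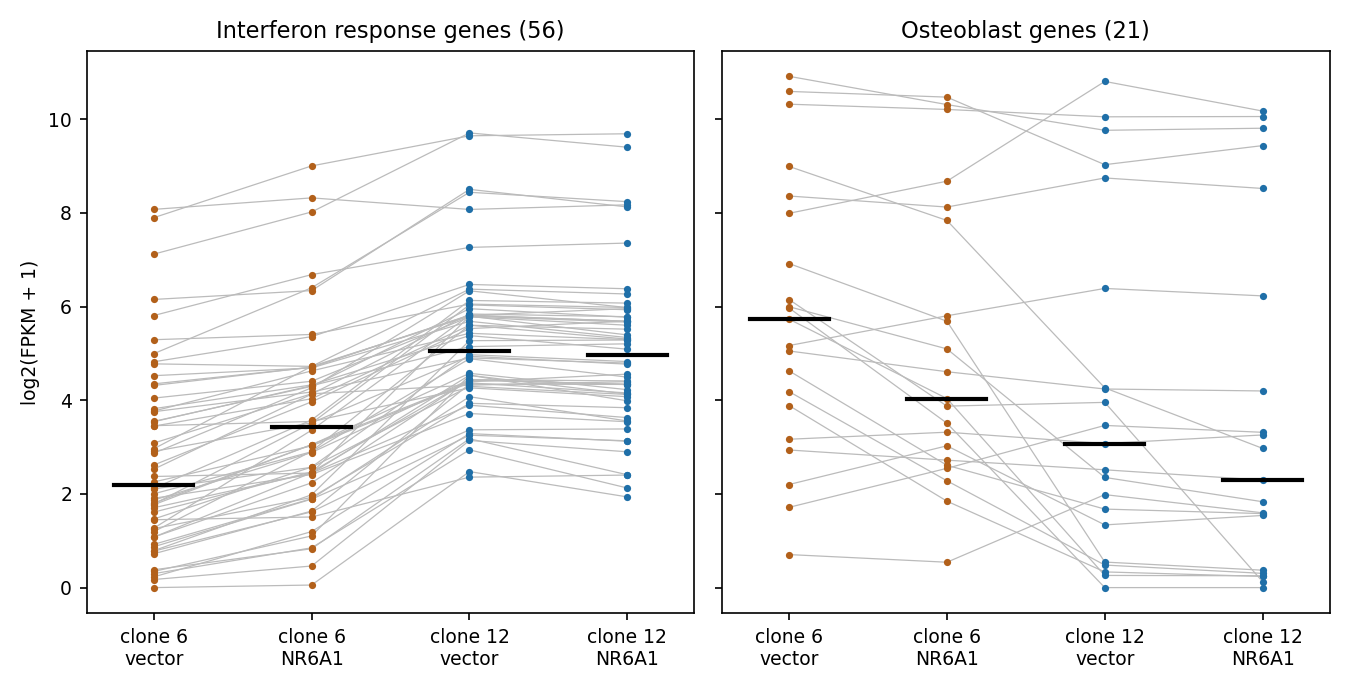
Levels of the 56 interferon response genes and the 21 osteoblast genes in each library, in log2(FPKM + 1); grey lines join the values of 1 gene and black bars are list medians. The interferon median was 3.56 and 9.85 FPKM in clone 6 and 32.4 and 30.3 FPKM in clone 12; the osteoblast median was 52.2 and 15.4 FPKM in clone 6 and 7.44 and 3.91 FPKM in clone 12.

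Genes of antigen presentation by class I molecules showed a smaller difference. Of 23 tested, 12 were higher and 3 lower in clone 12 (52.2% and 13%, against 16.8% and 14.4% of all genes). The median was 0.38. The immunoproteasome subunit genes Psmb10 and Psmb8 were at 20.2 and 25.2 FPKM in clone 6 and 56.5 and 52.3 FPKM in clone 12 (1.23 ± 0.12) and at 46.6 and 48.1 FPKM in clone 6 and 102 and 82.9 FPKM in clone 12 (0.95 ± 0.10). Tapbp, which loads peptides, was at 72.1 and 83.1 FPKM in clone 6 and 165 and 139.8 FPKM in clone 12 (0.96 ± 0.12). The light chain gene B2m was at 1345 and 1339.6 FPKM in clone 6 and 1473 and 1556 FPKM in clone 12 and was not called. Nlrc5, a transactivator of class I genes, was lower in clone 12 at 10.2 and 8.74 FPKM in clone 6 and 3.85 and 5.58 FPKM in clone 12 (-0.89 ± 0.17, adjusted p = 0.0173). H2-T23 was at 17.6 and 14.1 FPKM in clone 6 and 58.6 and 38.2 FPKM in clone 12 (1.53 ± 0.10); class I genes resemble each other closely, so their separate values are uncertain.

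Chemokines followed the direction of the interferon list. Of 14 tested genes, 10 were higher and 2 lower in clone 12 (71.4% and 14.3%, against 16.8% and 14.4% of all genes). The median was 1.15. Ccl5, which attracts T cells, was at 5.97 and 38.9 FPKM in clone 6 and 146 and 179 FPKM in clone 12 (3.29 ± 0.49). Ccl2, which attracts monocytes, was at 39.3 and 64.4 FPKM in clone 6 and 277 and 255 FPKM in clone 12 (2.38 ± 0.19). Cxcl1, a neutrophil chemokine like Cxcl5, was at 9.77 and 24.6 FPKM in clone 6 and 81.2 and 68.5 FPKM in clone 12 (2.19 ± 0.33). Cxcl10, an interferon-induced chemokine, was at 9.52 and 4.59 FPKM in clone 6 and 121 and 19.8 FPKM in clone 12 (2.72 ± 0.36). Cxcl10 was lower with NR6A1 than with vector in both clones, and Ccl5 was not. The 2 chemokines that were lower in clone 12 were Cxcl12, given above, and Cxcl14, at 16.3 and 4.48 FPKM in clone 6 and 1.93 and 0.299 FPKM in clone 12 (-2.32 ± 0.16).

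Of 22 tested cytokine and NF-kB genes, 15 (68.2%) were higher and 1 (4.55%) lower in clone 12, with a median of 0.64. Over all genes the shares were 16.8% and 14.4%. The macrophage growth factor gene Il34 was at 1.91 and 2.34 FPKM in clone 6 and 10.6 and 8.604 FPKM in clone 12 (1.76 ± 0.15). Il15, a factor for natural killer cells, was at 0.0787 and 0.0453 FPKM in clone 6 and 2.38 and 2.05 FPKM in clone 12 (1.6 ± 0.19). The NF-kB inhibitor gene Nfkbie was at 3.03 and 2.84 FPKM in clone 6 and 10.99 and 8.46 FPKM in clone 12 (1.44 ± 0.12). These were low in absolute level beside the chemokines. The cytokine genes Il1b and Tnf were at or near 0 in every library (0.00364 and 0.0307 FPKM at most). Of 9 tested complement genes, 3 were higher and 1 lower (33.3% and 11.1%, against 16.8% and 14.4% of all genes). C2, a protease subunit of the classical pathway, was at 0.185 and 0.542 FPKM in clone 6 and 4.64 and 3.76 FPKM in clone 12 (1.94 ± 0.21). The inhibitor gene Cd59a was at 4.49 and 4.63 FPKM in clone 6 and 0.351 and 1.14 FPKM in clone 12 (-1.71 ± 0.20).

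Most tested collagen chains and small leucine-rich proteoglycans were lower in clone 12. Of 23 tested collagen chains, 14 (60.9%) were lower and 4 (17.4%) higher, with a median of -0.66. Over all genes the shares were 14.4% and 16.8%. The summed level of all listed chains was 5151 and 4369 FPKM in clone 6 and 2598 and 2819 FPKM in clone 12. The median level of the tested chains was 18.01 and 20.19 FPKM in clone 6 and 23.92 and 22.71 FPKM in clone 12. Col1a1 was at 1547 and 1422 FPKM in clone 6 and 522 and 693 FPKM in clone 12 (-1.3 ± 0.14, adjusted p = 0.00403) and Col1a2 at 1935 and 1273 FPKM in clone 6 and 869.7 and 897 FPKM in clone 12 (-0.83 ± 0.16). Col15a1, a chain of the basement membrane zone, was at 34.8 and 21.4 FPKM in clone 6 and 0.825 and 0.893 FPKM in clone 12 (-3.93 ± 0.19). The 4 chains that were higher in clone 12 were the basement membrane chains Col4a1, at 11.8 and 24.1 FPKM in clone 6 and 32.9 and 38.2 FPKM in clone 12 (1.02 ± 0.18), and Col4a2 (0.7 ± 0.15), together with Col5a3 (1.24 ± 0.14) and Col8a1 (0.69 ± 0.18). Fibrillar collagen I was thus lower and collagen IV higher in clone 12, both with each virus.

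Of 6 tested small leucine-rich proteoglycans, 4 (66.7%) were lower and 1 (16.7%) higher in clone 12. Over all genes the shares were 14.4% and 16.8%. Besides Fmod, osteomodulin (Omd), found in bone matrix, was at 37.95 and 13.8 FPKM in clone 6 and 2.97 and 1.97 FPKM in clone 12 (-2.8 ± 0.23). Osteoglycin (Ogn) was at 110.4 and 99.6 FPKM in clone 6 and 53.7 and 45.6 FPKM in clone 12 (-1.07 ± 0.08). Omd, Ogn and asporin (Aspn, -1.4 ± 0.34) are neighbours on chromosome 13. Biglycan (Bgn) went the other way, at 342 and 679 FPKM in clone 6 and 949 and 1027 FPKM in clone 12 (1.03 ± 0.20, adjusted p = 0.0181), and was among the 4 most abundant genes at least 2-fold higher in clone 12. With it, the summed level of the 14 listed proteoglycans was 893 and 1034.5 FPKM in clone 6 and 1048 and 1125 FPKM in clone 12.

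Matrix glycoproteins were divided. Of 34 tested, 13 were lower and 9 higher in clone 12 (38.2% and 26.5%, against 14.4% and 16.8% of all genes). Tenascin C (Tnc), a protein of remodelling tissue, was at 421 and 62.6 FPKM in clone 6 and 18.99 and 24.9 FPKM in clone 12 (-2.85 ± 0.67, adjusted p = 0.0288). Its clone 6 level with vector was far above the other 3 libraries. Periostin (Postn) was at 95.6 and 166 FPKM in clone 6 and 23.5 and 78.1 FPKM in clone 12 (-1.53 ± 0.21). Thrombospondin 1 (Thbs1) was at 657 and 274 FPKM in clone 6 and 221 and 172 FPKM in clone 12 (-1.12 ± 0.21). Nov, a CCN family protein, was at 1.02 and 0.742 FPKM in clone 6 and 31.4 and 3.102 FPKM in clone 12 (2.62 ± 0.61). For Nov the gap was wide with vector and narrow with NR6A1.

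Basement membrane genes leaned to clone 12, with 7 of 17 (41.2%) higher and 3 (17.6%) lower and a median of 0.30. Over all genes the shares were 16.8% and 14.4%. Nid1, a linker of laminin and collagen IV, was at 2.61 and 11.1 FPKM in clone 6 and 19.6 and 20.3 FPKM in clone 12 (1.66 ± 0.38). Laminin alpha 5 (Lama5) was at 0.723 and 2.05 FPKM in clone 6 and 5.76 and 5.75 FPKM in clone 12 (1.56 ± 0.22). Laminin alpha 4 (Lama4) was lower, at 4.26 and 5.88 FPKM in clone 6 and 0.0298 and 0.0675 FPKM in clone 12 (-2.52 ± 0.18). Lama5 transcripts were thus present in both clones and higher in clone 12, whereas Lama4 was near 0 in clone 12. Perlecan (Hspg2) was at 78.2 to 83.0 FPKM in all 4 libraries.

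Among 27 tested matrix proteases and inhibitors, 8 (29.6%) were lower and 6 (22.2%) higher in clone 12. Over all genes the shares were 14.4% and 16.8%. The membrane-bound collagenase gene Mmp14 was at 156 and 154 FPKM in clone 6 and 63.6 and 66.2 FPKM in clone 12 (-1.24 ± 0.08). The gelatinase gene Mmp2, whose product MMP14 activates, was at 3.25 and 5.97 FPKM in clone 6 and 12.1 and 14.04 FPKM in clone 12 (1.37 ± 0.15). Activator and substrate thus differed in opposite directions. Of 20 genes for collagen crosslinking and folding, 7 (35%) were lower and 3 (15%, no more than the share of all genes) higher in clone 12. Loxl1 and Loxl2, lysyl oxidases, were higher (1.17 ± 0.15 and 1.07 ± 0.09). Bmp1, which trims procollagen ends, was lower at 77.2 and 71.8 FPKM in clone 6 and 31.2 and 38.2 FPKM in clone 12 (-1.09 ± 0.11). Of 13 integrins, 5 were lower and 4 higher (38.5% and 30.8%, against 14.4% and 16.8% of all genes). Itga11, a collagen receptor subunit, was at 34.6 and 39.999 FPKM in clone 6 and 5.45 and 11.6 FPKM in clone 12 (-2.08 ± 0.18). Itgb7, a subunit best known from lymphocytes, was at 0.371 and 1.27 FPKM in clone 6 and 10.5 and 9.79 FPKM in clone 12 (2.66 ± 0.22).

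The median differences of the 9 metabolic lists lay between -0.14 and 0.36. Of 22 tested glycolysis genes, 6 were higher and 1 lower in clone 12 (27.3% and 4.55%, against 16.8% and 14.4% of all genes). The median was 0.23. The lactate exporter gene Slc16a3 was at 4.304 and 6.68 FPKM in clone 6 and 33.5 and 20.9 FPKM in clone 12 (2.11 ± 0.27). Pyruvate kinase, listed as Pkm2, was at 910.4 and 884 FPKM in clone 6 and 1592 and 1218 FPKM in clone 12 (0.63 ± 0.11). The lactate dehydrogenase subunit gene Ldhb was lower at 12.6 and 10.7 FPKM in clone 6 and 7.704 and 2.72 FPKM in clone 12 (-1.15 ± 0.24). Slc16a3 had the largest difference of the called glycolysis genes, and Ldha, at 771 and 833 FPKM in clone 6 and 975 and 883 FPKM in clone 12, was not called.

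Of 63 tested respiratory chain genes, 46 were not called. In clone 12, 15 (23.8%, against 14.4% of all genes) were lower and 2 (3.17%, against 16.8%) higher, none past 2-fold, with a median of -0.14, which is smaller than the shift of chromosome 10 or 14 described below. The complex I subunit gene Ndufa3 was at 266 and 245 FPKM in clone 6 and 135 and 146 FPKM in clone 12 (-0.86 ± 0.09). Atp5b, the catalytic subunit of ATP synthase, was at 1724 and 1638 FPKM in clone 6 and 1131 and 1187 FPKM in clone 12 (-0.54 ± 0.09). Of 25 citric acid cycle genes, 5 were lower and 4 higher (20% and 16%, close to the shares of all genes). Citrate synthase (Cs) was at 221 and 223 FPKM in clone 6 and 155 and 164 FPKM in clone 12 (-0.48 ± 0.08). Suclg2, a subunit of succinyl-CoA ligase, was at 7.9996 and 11.6 FPKM in clone 6 and 31.9 and 26.6 FPKM in clone 12 (1.5 ± 0.18). Apart from Suclg2, no called citric acid cycle gene differed by 2-fold.

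Genes of sterol synthesis showed calls in 1 direction. Of 23 tested cholesterol synthesis genes, 12 (52.2%, against 16.8% of all genes) were higher and none was lower. None was past 2-fold, and the median was 0.36. Sc4mol and Sc5d, sterol-modifying enzymes, were at 110.1 and 63.1 FPKM in clone 6 and 171 and 115 FPKM in clone 12 (0.74 ± 0.09) and at 32.1 and 25.5 FPKM in clone 6 and 56.2 and 40.7 FPKM in clone 12 (0.72 ± 0.08). Of 14 fatty acid synthesis genes, 5 were higher and 1 lower (35.7% and 7.14%, against 16.8% and 14.4% of all genes). The desaturase gene Scd2 was higher, at 365 and 279.6 FPKM in clone 6 and 557 and 453 FPKM in clone 12 (0.65 ± 0.08). Of 29 fatty acid oxidation genes, 4 were higher and 3 lower (13.8% and 10.3%, no more than the shares of all genes); Pdk4, a kinase that restrains pyruvate oxidation, was lower at 45.1 and 20.1 FPKM in clone 6 and 9.76 and 2.89 FPKM in clone 12 (-2.27 ± 0.11).

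Of 34 tested antioxidant and glutathione genes, 13 (38.2%) were higher and 5 (14.7%) lower in clone 12, with a median of 0.26. Over all genes the shares were 16.8% and 14.4%. After Nqo1, extracellular superoxide dismutase (Sod3) had the widest gap, at 3.05 and 0.103 FPKM in clone 6 and 24.1 and 6.102 FPKM in clone 12 (2.66 ± 0.12). The glutathione transferase gene Gstt1 was at 25.6 and 20.4 FPKM in clone 6 and 119.8 and 61.6 FPKM in clone 12 (1.87 ± 0.16). Heme oxygenase 1 (Hmox1) was at 82.8 and 118 FPKM in clone 6 and 173 and 198 FPKM in clone 12 (0.9 ± 0.10). Gstm2 was lower, at 39.6 and 55.7 FPKM in clone 6 and 21.8 and 25.8 FPKM in clone 12 (-0.96 ± 0.09), and belongs to a cluster of similar genes. Of 12 aldehyde dehydrogenases, 2 were higher and 1 lower (16.7% and 8.33%, no more than the shares of all genes), and Aldh3a1 was at 3.63 and 6.35 FPKM in clone 6 and 21.3 and 19.1 FPKM in clone 12 (1.86 ± 0.20).

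Of 24 tested genes of serine, one-carbon and amino acid metabolism, 11 (45.8%, against 16.8% of all genes) were higher in clone 12. None was lower, and the median was 0.24. Phgdh, the first enzyme of serine synthesis, was at 136 and 170.2 FPKM in clone 6 and 266 and 240.3 FPKM in clone 12 (0.73 ± 0.13). Glutamine synthetase (Glul) was at 3.403 and 7.401 FPKM in clone 6 and 20.3 and 21.8 FPKM in clone 12 (1.86 ± 0.20). Mitochondrial Shmt2 was at 197 to 199 FPKM in all 4 libraries, whereas its cytosolic relative Shmt1 was at 22.9 and 27.3 FPKM in clone 6 and 42.4 and 42.3 FPKM in clone 12 (0.74 ± 0.09).

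Both lines are immortalised, and genes of the p53 pathway and of cell division were compared for that reason. Of 24 p53 pathway and immortalisation genes, 8 (33.3%) were lower and 5 (20.8%) higher in clone 12. Over all genes the shares were 14.4% and 16.8%. Mdm2, the ubiquitin ligase that degrades p53, was at 50.7 and 54.5 FPKM in clone 6 and 185 and 140.2 FPKM in clone 12 (1.6 ± 0.13, adjusted p = 0.00205). Gadd45a was at 9.15 and 6.28 FPKM in clone 6 and 36.3 and 20.1 FPKM in clone 12 (1.7 ± 0.11). Other p53 targets were lower, among them Phlda3 at 99.4 and 105 FPKM in clone 6 and 60.6 and 65.7 FPKM in clone 12 (-0.69 ± 0.07). Trp53 itself was at 98.6 and 112 FPKM in clone 6 and 122 and 127 FPKM in clone 12 and was not called. Of 32 proliferation genes, 2 were higher and 3 lower (6.25% and 9.38% against 16.8% and 14.4% of all genes). Cyclin D1 (Ccnd1) was at 45.3 and 54.2 FPKM in clone 6 and 94.9 and 72.2 FPKM in clone 12 (0.73 ± 0.16). Cdk1 was at 139.8 and 141 FPKM in clone 6 and 106 and 109 FPKM in clone 12 (-0.38 ± 0.07). Of 10 imprinted genes, 4 were lower and 2 higher (40% and 20%, against 14.4% and 16.8% of all genes). Plagl1, a zinc finger factor expressed from the paternal allele, was at 8.43 and 3.46 FPKM in clone 6 and 0.9202 and 0.673 FPKM in clone 12 (-1.86 ± 0.24). Mest was at 3.71 and 18.2 FPKM in clone 6 and 1.09 and 0.869 FPKM in clone 12 (-2.27 ± 0.49).

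**Figure D4:**
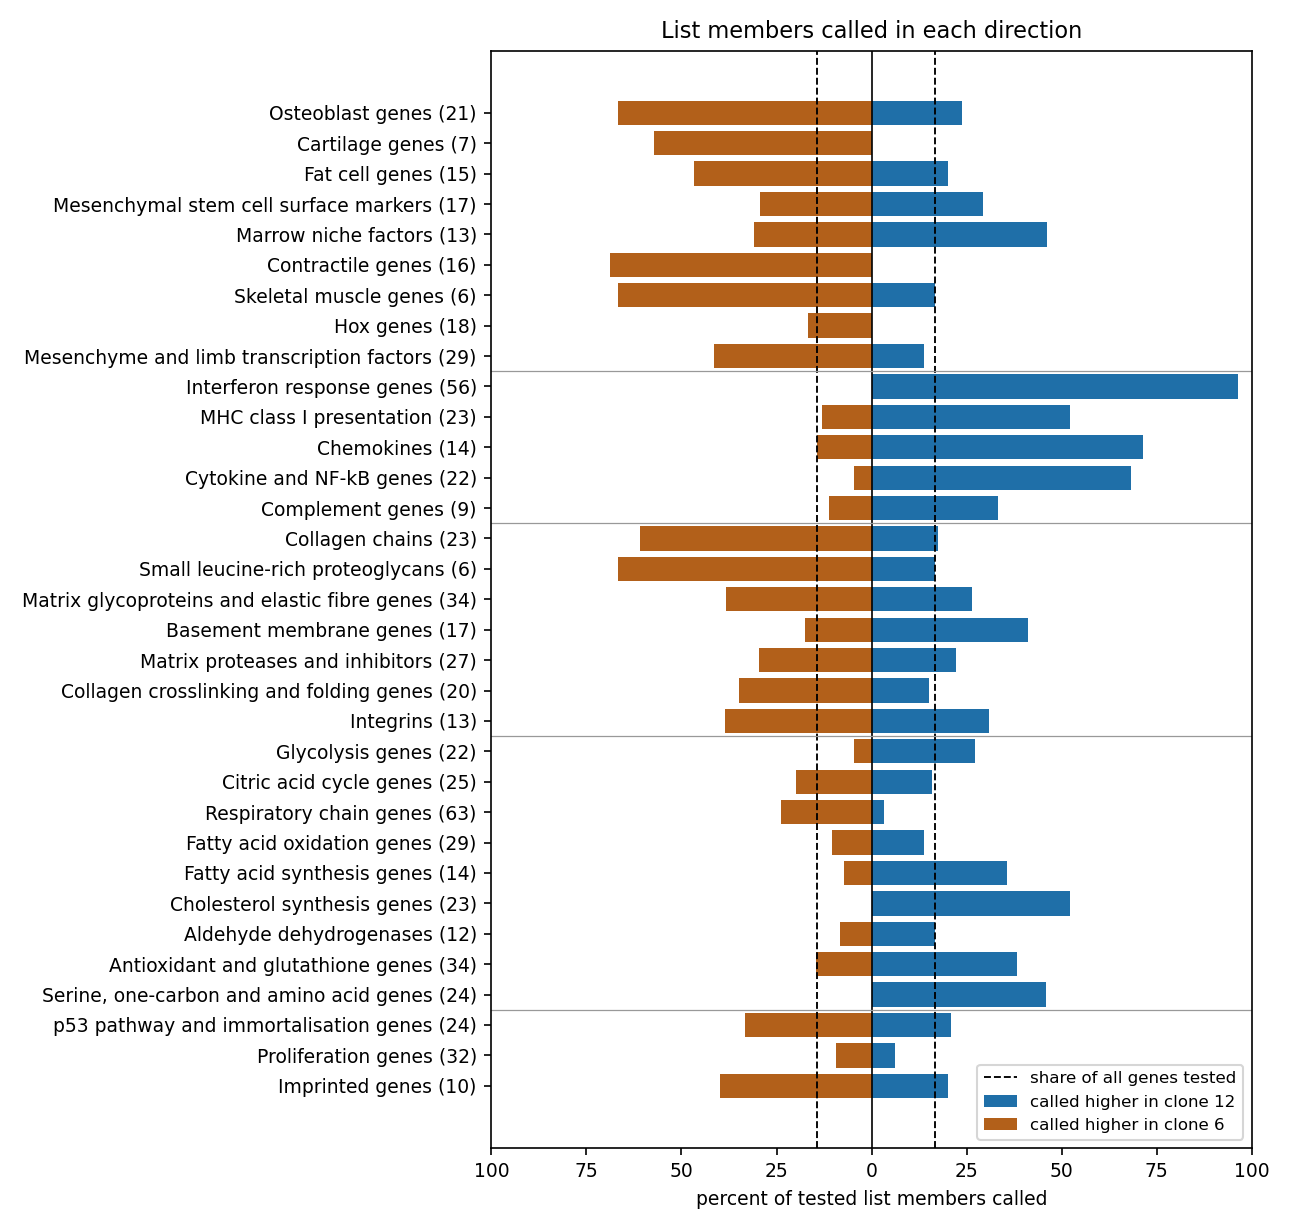
Share of the tested members of each list that was called higher (blue, right) or lower (orange, left) in clone 12, in percent, with the number tested in brackets; dashed lines mark the shares over all genes, 16.8% and 14.4%. The interferon bar reaches 96.4% on the right, and the contractile (68.8%), osteoblast (66.7%) and collagen (60.9%) bars reach far to the left.

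Position along the genome also separated the clones. Chromosomes were taken from RefSeq (GRCm38.p6), where 9879 tested genes matched by symbol and 1186 by an older name, and 11064 lay on 20 chromosomes. On chromosome 14, 53.1% of 367 tested genes were lower in clone 12, with a median of -0.38 with vector and -0.33 with NR6A1. On chromosome 10, 47.1% of 550 genes were lower, with medians of -0.32 and -0.30. Those chromosomes carried 454 of the 1608 lower calls (28.2%) and 8.22% of the genes tested. In the other direction stood chromosomes 18 (36.7% higher), 9 (35.1%), 15 (34.4%) and 4 (30.9%), with medians of 0.19 to 0.25 and 690 of the 1870 higher calls (36.9%), from 18.3% of the genes tested. Cxcl5, Fmod, Sp7 and Alpl, which were named for their large differences, differed by far more than these medians. Other called genes named above differed by about as little, such as Cdk1 (-0.38). Whether the shifts had a part in the difference of any gene was not tested. DNA copy number was not measured here.

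Lists differed in how many of their called genes lay on these chromosomes. Over all genes, chromosomes 10 and 14 held 28.2% of the lower calls. Chromosomes 4, 9, 15 and 18 held 36.9% of the higher calls. Whether the chromosome shifts had a part in any list was not tested. None of the 14 osteoblast genes lower in clone 12 lay on chromosomes 10 or 14, and 5 of the 54 interferon genes that were higher lay on chromosomes 4, 9, 15 or 18. When the median of each chromosome was removed, 2157 genes were called, 1946 of them also called before, and the counts were 54 for higher interferon genes and 11 for lower osteoblast genes. Of the 15 respiratory chain genes lower in clone 12, 3 were on chromosomes 10 or 14, and of the 12 cholesterol genes higher in clone 12, 4 were on chromosomes 4, 9, 15 or 18. The same 4 chromosomes carried 3 of the 4 fatty acid oxidation genes and both respiratory chain genes that were higher. Chromosomes 10 and 14 carried 2 of the 3 basement membrane genes and 2 of the 4 marrow niche genes that were lower.

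**Figure D5:**
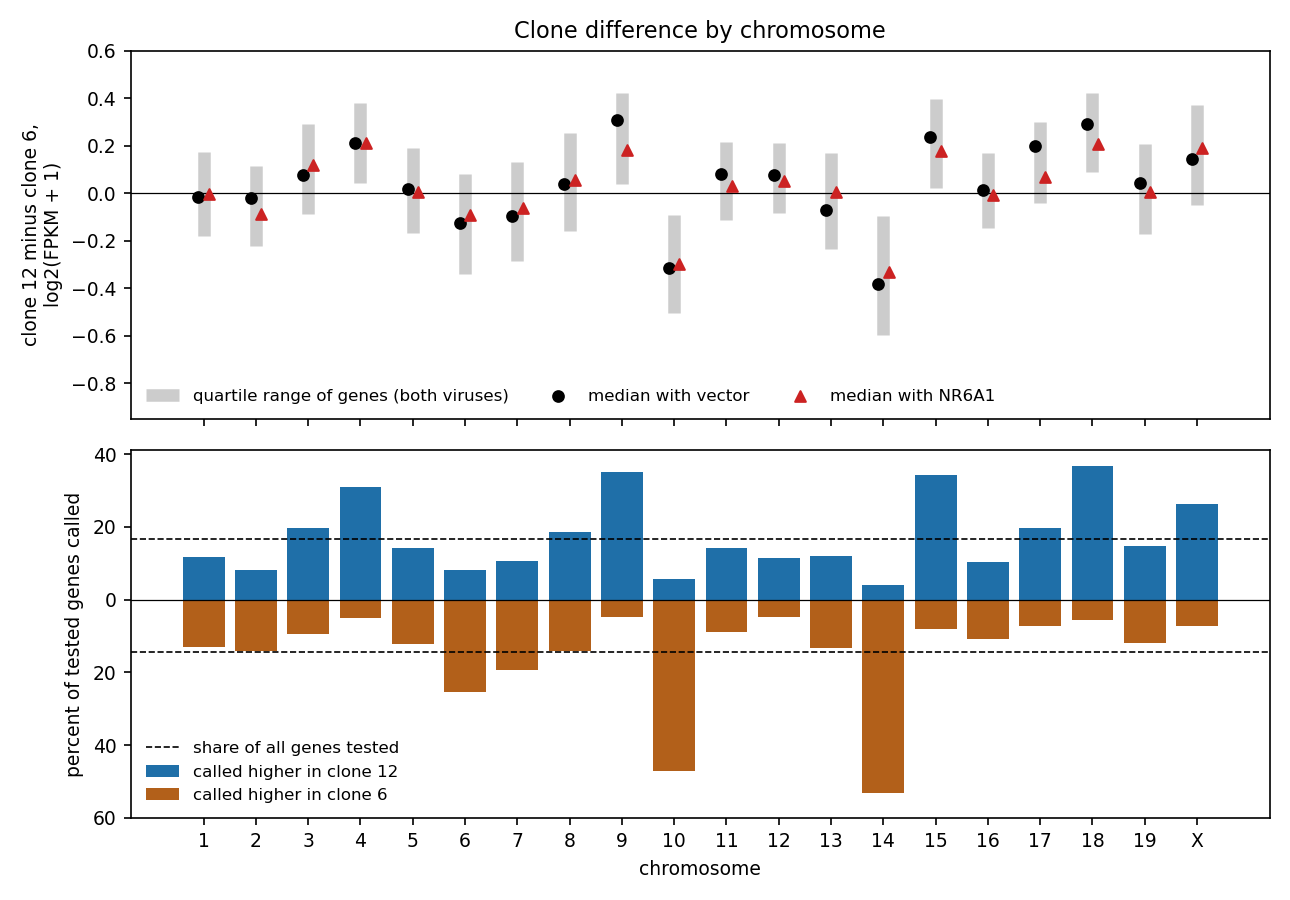
Top, median clone 12 minus clone 6 difference in log2(FPKM + 1) on each chromosome with vector (circles) and NR6A1 (triangles), and the range between the quartiles of its genes (grey bars); bottom, percent of its tested genes called in each direction, with the shares of all genes dashed. Chromosomes 10 and 14 lie below 0 with both viruses, with 47.1% and 53.1% of genes lower in clone 12, and 4, 9, 15 and 18 lie above 0.

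Within chromosomes, 16 runs of at least 3 neighbouring tested genes were each called and at least 2-fold apart in 1 direction, 10 higher and 6 lower in clone 12. The longest run, on chromosome 9, held 9 genes from Dcps to Hyls1, all higher, with differences of 2.27 to 2.95. In it, the mRNA cap-scavenging enzyme gene Dcps was at 26.7 and 35.6 FPKM in clone 6 and 304 and 197 FPKM in clone 12 (2.95 ± 0.23). The signal recognition particle receptor gene Srpr was at 68.02 and 70.2 FPKM in clone 6 and 386 and 293 FPKM in clone 12 (2.27 ± 0.12). The Hedgehog co-receptor gene Cdon was at 21.2 and 21.9 FPKM in clone 6 and 135 and 95.9 FPKM in clone 12 (2.35 ± 0.14). The genes on either side differed less: St3gal4 by 0.77 and Chek1 by 0.61. Elsewhere on chromosome 9, Yap1, the growth-promoting effector of the Hippo pathway, was at 38.5 and 44.9 FPKM in clone 6 and 341 and 230.4 FPKM in clone 12 (2.72 ± 0.18), next to Birc3 (1.24 ± 0.16) and 9230110C19Rik (3.0 ± 0.13), while Birc2 (0.36) and Arhgap42 (0.26) beside them were close to the rest of the chromosome. On chromosome 10, where most genes were lower, Mdm2 and its neighbour Slc35e3, at 11.3 and 12.5 FPKM in clone 6 and 80.9 and 53.3 FPKM in clone 12 (2.37 ± 0.18), were higher. For Dcps, Srpr, Cdon, Yap1, Mdm2 and Slc35e3 the vector library of clone 12 was the highest of the 4 libraries. Mdm2 came by the rule for named genes; the others of these neighbouring genes were chosen after their values were seen.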

How the data were processed

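Polyadenylated RNA of 4 cultures (2 clones, each with 2 viruses) was sequenced. The authors deposited FPKM per gene; Cufflinks 1.0.3, TopHat 1.2.0 and mouse build mm9 are named in the submitters' processing notes. The sources used here give neither the annotation nor the strandedness. Overlapping genes and close copies may share reads in such values.

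Genes of mean FPKM at least 1, without symbols starting Mir, Snor, Scarna or Rnu, were compared as log2(FPKM + 1) with limma 3.58.1 in R 4.3.3 (mean-variance trend, virus as block, moderated two-sided test, Benjamini-Hochberg at 0.05). The fit left 1 residual degree of freedom and a prior of 4.41. Virus was the block because both clones were infected with each of the 2 viruses. The procedure was run on simulated data in which few genes differed and genes varied independently of each other. The many calls and the chromosome-wide shifts of the real data were not simulated. Depth was inferred from 1818 genes; 50.3% to 53.2% of low values lay within 0.1 of a whole read, against 15.9% to 18.5% at other depths, so no count test was run.

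Genes named were, per direction, the 15 largest called differences at a mean of at least 5 FPKM; per list, up to 6 called members and 2 others; the 4 most abundant genes at least 2-fold apart per clone; and Nr6a1 and Dicer1. Further list members were chosen after their values were seen. Members and lists were chosen with earlier results of these data known. Alternatives were other pseudocounts, filters, scalings, priors and thresholds, no block, and each library left out.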

Additional observations from a re-analysis of the deposited data

Results flagged for a closer look

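Results whose clone difference pointed in opposite directions with vector and with NR6A1, by at least 0.1 on the log2(FPKM + 1) scale each way, are given here as clone 12 minus clone 6, first with vector and then with NR6A1. The change of direction was not tested, since each value rests on 1 library per clone. The median over marrow niche factors was 0.33 and -0.14. The chondrocyte factor Sox9 differed by 1.08 and -0.13, and Pgf, placental growth factor, by 1.02 and -0.14. The collagen chain gene Col5a2 differed by -0.16 and 0.15, and the urokinase gene Plau by -0.37 and 0.16. The glycolytic gene Tpi1 differed by 0.10 and -0.14. Xist differed by -0.16 and 0.26, and the tubulin gene Tubb3 by -0.16 and 0.20. None of these genes was called in the fit of all 4 libraries, which cannot call a gene whose differences have opposite signs.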

How the results depend on the processing

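Counts of calls changed with the filter and with the libraries in the fit, and the causes were not tested. Against 3478 genes called, there were 2413 without the virus block (pairing), 2157 with chromosome medians removed (chosen after the data were seen) and 0 of 17683 with no filter (limma; 5523 at unadjusted p under 0.05), where 0 genes were called and 2-fold higher, 0 called and 2-fold lower, and 0 list members called. Leaving out 1 library gave 101 to 2357 calls, 49 to 431 genes at least 2-fold higher (383 in the full fit), 52 to 339 at least 2-fold lower (328), and 20 to 283 list members called (376). In these fits the spread comes only from the clone that keeps both libraries, its virus effect included. The low ends came without clone 12 with vector, and without clone 12 with NR6A1 there were 354 calls and 70 list members. A pseudocount of 5 gave 191 and 147 genes at least 2-fold higher and lower, and 232 genes at least 2-fold apart with each virus (544 in the full fit); a minimum mean of 5 FPKM gave 247, 185 and 336. With 1 library left out, when the clones no longer hold matched viruses, Nr6a1 ranged from -4.07 to 3.23 and Clu from -0.0842 to 1.28 (0.60 in the full fit), so both reversed. Of the named genes, 52 lost their call without the block, 199 with no filter, 40 with chromosome medians removed, 39 with a robust prior, 27 with short RNA genes kept, 14 without the variance trend, 9 with quantile normalization, 5 with upper quartile scaling and 1 with each other pseudocount. Leaving out a library did so for 169 and 134 (clone 12 with vector and with NR6A1) and for 49 and 42 (clone 6). Depth sets no interval here, since FPKM carry no counts.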

Other observations

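Runs of neighbouring genes that were each at least 2-fold higher in clone 12 also covered immune gene families. Of the families given here, the interferon list holds Ly6e and Trim30a. Other such runs held Ifit3 and Ifit1 on chromosome 19 and Oas1g and Oas1a on chromosome 5, which are also on the interferon list. The runs were chosen after their values were seen, and members of each family resemble each other, so the division of their reads is uncertain. On chromosome 15, the 5 neighbours Ly6e, Ly6i, Ly6a, Ly6c1 and Ly6c2, which encode surface proteins held by a lipid anchor, differed by 1.58 to 3.80. Ly6c1, an antigen of monocytes and other blood cells, was at 13.5 and 8.59 FPKM in clone 6 and 149.8 and 54.9 FPKM in clone 12 (2.96 ± 0.20). On chromosome 1, 5 neighbours of the Ifi200 family of nucleic acid binding proteins differed by 1.04 to 1.97, and Ifi204 was at 30.96 and 36.1 FPKM in clone 6 and 80.3 and 67.8 FPKM in clone 12 (1.12 ± 0.12). On chromosome 7, the 5 neighbours from Trim34a to Trim30d differed by 1.17 to 3.16.

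The genes for interferons themselves were near or at 0. Ifnb1 was listed at 0 in both clone 6 libraries and at 0.535 and 0.171 FPKM in clone 12, and Ifna4 was listed at 0 in clone 6 and at 0.196 and 0.110 FPKM in clone 12. Both were below the filter and were not tested. The receptor genes Ifnar1, at 10.6 and 10.6 FPKM in clone 6 and 9.95 and 9.62 FPKM in clone 12, and Ifnar2, at 25.98 and 25.7 FPKM in clone 6 and 30.2 and 23.3 FPKM in clone 12, were not called. Tmem173 (STING), an adaptor for DNA sensing, was at 8.696 and 17.2 FPKM in clone 6 and 20.7 and 24.1 FPKM in clone 12 (0.81 ± 0.17, adjusted p = 0.0219).

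Besides Wif1 and Sfrp2, 3 genes for secreted modulators of the Wnt and BMP pathways, again chosen after their values were seen, were higher in clone 6; the pathways were not counted as lists. Sfrp1 was at 17.9 and 22.8 FPKM in clone 6 and 1.95 and 0.367 FPKM in clone 12 (-3.4 ± 0.33). The Wnt amplifier gene Rspo3 was at 42.4 and 17.6 FPKM in clone 6 and 1.58 and 1.84 FPKM in clone 12 (-3.39 ± 0.31). The BMP antagonist gene Nog was at 4.39 and 2.897 FPKM in clone 6 and 0.154 and 0.0565 FPKM in clone 12 (-2.05 ± 0.18). The retinoic acid carriers differed in opposite directions: Crabp2 was at 0.528 and 1.49 FPKM in clone 6 and 17.2 and 14.9 FPKM in clone 12 (3.12 ± 0.22) and Crabp1 was at 3.88 and 8.85 FPKM in clone 6 and 0.402 and 0.6303 FPKM in clone 12 (-2.2 ± 0.22).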
